A study of Homo sapiens with 46 samples.

Results

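COX2 silencing was examined in 3 libraries of HEK293T cells (replicates 2, 3 and 4) against 4 libraries of the pCox4 control (replicates 1 to 4), all genes counted, among 46 libraries of 12 conditions. The cells, called HEK293T in the study, are of the HEK293-Flp-In T-Rex line, derived from human embryonic kidney. To silence COX2, an antisense morpholino (an uncharged analog of nucleic acid) was coupled by a click reaction to the yeast presequence pCox4, which directs import into mitochondria, and cells were harvested 48 hours after transfection at 2 µM. The control was pCox4 alone in the buffer of that reaction, with no morpholino, so an effect of any imported morpholino cannot be told apart from an effect of silencing in this comparison. Replicate 2 of COX2 belongs to batch 1 and replicates 3 and 4 to batch 2, and the control has 2 libraries in each batch. The batch therefore stood as a covariate in the main model for single genes. The exact permutation tests of shares and other measures of whole libraries did not account for it.

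COX2 is subunit II of cytochrome c oxidase (complex IV), the last enzyme of the respiratory chain, and has no relation to cyclooxygenase 2, which shares the name. It carries the copper center that takes electrons from cytochrome c, and it is encoded in mitochondrial DNA (mtDNA) by MT-CO2. Its copper center is filled by the SCO proteins and their partners before it joins the nuclear-encoded subunits, and cells short of complex IV rely more on glycolysis for ATP. The morpholino was designed against the first bases of the MT-CO2 coding sequence and was meant to block translation, so the RNA-seq data show the level of the targeted mRNA and the response of other transcripts, not the protein. The target lies on the + strand at chrM:7586-7608 (GRCh38), 23 bases in the single exon of MT-CO2 (chrM:7586-8269). The target site and its complement, the strand that the morpholino has to carry to pair with it, are shown because all that follows depends on them, with the start codon and its complement in capitals.
target site: ATGgcacatgcagcgcaagtagg
complement: cctacttgcgctgcatgtgcCAT

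The libraries held between 21791633 and 26804285 counts after COX2 silencing and between 19944731 and 22664329 in the control. Genes of mtDNA took 4.82% ± 0.386 of the counts after COX2 silencing (SD, n = 3) and 4.56% ± 0.414 in the control (SD, n = 4; exact permutation test, two-sided, p = 0.343), where 0.0571 is the smallest p that 3 libraries against 4 can give. All 9 markers of the HEK293 line passed the filter on low counts, with a summed level of 1282 to 1515 CPM (read counts scaled to a common library size) after silencing and 1337 to 1521 CPM in the control. Of 14 markers of fibroblasts, blood cells, hepatocytes and myocytes, 5 passed, HBB had no count in any of the 7 libraries, and the sum was 27.8 to 34.5 CPM against 29.7 to 35.3 CPM, most of it COL1A1 at 22.2 to 28.7 CPM. None of the 5 markers that passed was called altered between the groups, and the rest of the 14 were not tested.

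The MT-CO2 mRNA was slightly lower after silencing, but not past the threshold. Its level was 3806 CPM in COX2 replicate 2, 4123 in replicate 3 and 4467 in replicate 4, against 4503, 4163, 4991 and 5176 CPM in control replicates 1 to 4 (CPM normalized by TMM, a scaling that assumes most genes do not change). The ranges overlapped across batches, yet each COX2 library lay below the mean control of its own batch, at 87.8%, 81.1% and 87.9% of it. The log2 fold change was -0.22 (SE 0.0797, adjusted p = 0.182 in edgeR's quasi-likelihood test), with -0.19 in batch 1 alone and -0.25 in batch 2 alone. Within the mtDNA transcripts the difference was plainer. MT-CO2 made up 9.59%, 9.42% and 9.87% of the counts on the 13 mtDNA-encoded mRNAs in the COX2 libraries and 11.6%, 11.3%, 11.6% and 11.8% in the control libraries. The groups did not overlap, and the means were 9.63% ± 0.225 (SD, n = 3) and 11.57% ± 0.222 (SD, n = 4), a difference at the smallest p of the exact permutation test, 0.0571.

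**Figure D1:**
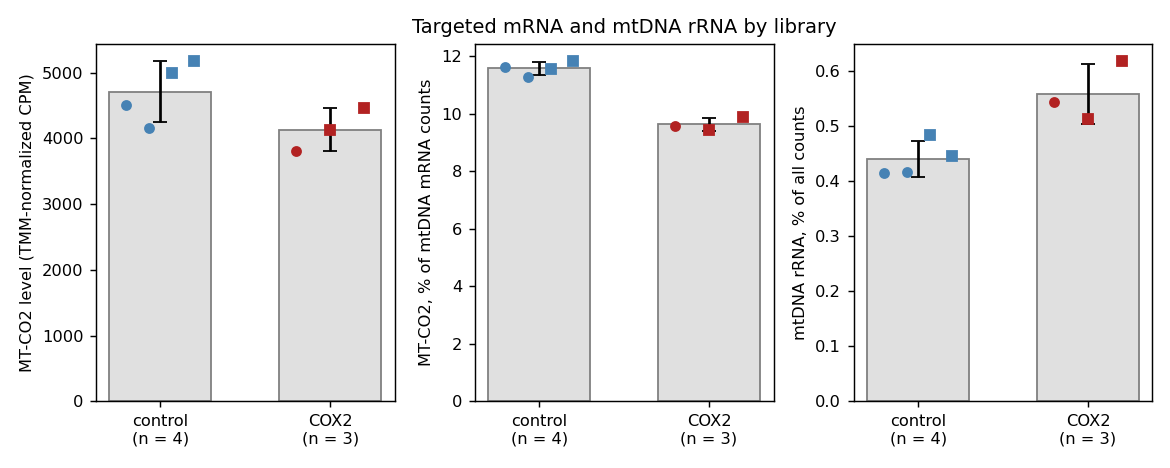
MT-CO2 level in CPM (left), MT-CO2 as a percentage of the counts on mtDNA-encoded mRNAs (middle) and mtDNA rRNA as a percentage of all counts (right) in control and COX2 libraries. Bars are means with SD, points are libraries (circles batch 1, squares batch 2). The MT-CO2 share lies near 9.6% in all 3 COX2 libraries and near 11.6% in the 4 control libraries, and the rRNA share is higher in each COX2 library than in any control library.

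COX1, COX3 and CYTB silencing were picked from the other 10 treatments to set their targeted mRNA beside this one. The targets of the remaining treatments were not examined here. The picked treatments share the same control libraries, so each is given with its own value. After COX1 silencing MT-CO1 stood at 39.7% of the control (log2 fold change -1.33, SE 0.0690), after COX3 silencing MT-CO3 stood at 71.1% (-0.49, SE 0.0646), and after CYTB silencing MT-CYB stood at 79.8% (-0.33, SE 0.0613), each with an adjusted p under the threshold in edgeR. MT-CO2 after COX2 silencing stood at 85.9%. Compared directly with COX1 silencing, which shares no library with COX2 silencing, MT-CO2 was lower by a log2 difference of -0.51 (SE 0.0802, adjusted p = 0.000228, edgeR). The difference from COX3 silencing was -0.37 (SE 0.0799, adjusted p = 0.157, edgeR) and from the mean of the other 10 treatments -0.28 (SE 0.0640, adjusted p = 0.147). Against the shared control, MT-CO2 itself was at 0.29 after COX1 silencing (SE 0.0734, adjusted p = 0.182, edgeR). After COX3 silencing it was at 0.15 (SE 0.0733, adjusted p = 0.461). The direct differences thus include these higher estimates as well as the -0.22 of COX2 silencing against the control.

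No other mtDNA-encoded mRNA passed the main test. MT-ND5 did with the replicate number as a block (adjusted p = 0.0223, edgeR). MT-ND6 did in DESeq2 (adjusted p = 0.0467) and with the GC trend removed (adjusted p = 0.0416, edgeR). Without a filter on low counts, or with only the 7 libraries compared, MT-CO2 was not the only mtDNA-encoded mRNA to pass. MT-CO1, which encodes the catalytic subunit, was at 12383, 12542 and 12520 CPM after COX2 silencing and between 11116 and 12487 CPM in the control (log2 fold change 0.04, SE 0.0733). MT-CO3, which encodes subunit III, was at 5325 to 5976 CPM against 4633 to 5756 CPM (0.08, SE 0.0696). Of the 13 mRNAs, 12 had a log2 fold change above 0 and only MT-CO2 lay below, although MT-ATP8, MT-CYB, MT-CO1, MT-ND4 and MT-ND4L had estimates that changed sign under 1 or more of the alternatives tried. The mRNAs of the complex I subunits ND5 and ND6 had the smallest p-values. MT-ND6, the only one of the 13 transcribed from the light strand, was at 625, 664 and 673 CPM against 518, 547, 564 and 552 CPM, without overlap (0.26, SE 0.0756, adjusted p = 0.0882, edgeR). MT-ND5, whose gene adjoins that of MT-ND6 on the other strand, was at 2754, 3411 and 3174 CPM against 2301, 2566, 2940 and 2336 CPM (0.30, SE 0.0892, adjusted p = 0.0916).

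Both mitochondrial rRNAs rose. MT-RNR1, the 12S rRNA of the small mitoribosomal subunit (chrM:648-1601), was at 936, 777 and 918 CPM after COX2 silencing and at 658, 664, 680 and 607 CPM in the control. Every COX2 library was above every control library, and the log2 fold change was 0.45 (SE 0.0671, adjusted p = 0.000320, edgeR), the smallest p of all genes tested. MT-RNR2, the 16S rRNA of the large subunit (chrM:1671-3229), was at 4679, 4372 and 5265 CPM against 3503, 3503, 4096 and 3726 CPM, again without overlap (0.35, SE 0.0676, adjusted p = 0.00580). The call of MT-RNR2 was lost without COX2 replicate 2 (0.33, adjusted p = 0.0686, edgeR) and without control replicate 4 (0.34, adjusted p = 0.0679). COX2 replicate 3 was the lowest of the silenced libraries for both rRNAs. Together they took 0.559% ± 0.0541 of all counts after silencing (SD, n = 3) and 0.440% ± 0.0321 in the control (SD, n = 4; p = 0.0571, exact permutation test). The libraries were enriched for poly(A) tails, so these are levels of rRNA that was captured by that step, and a change in capture cannot be told apart from a change in abundance. The test called 95 of 20272 genes in all (0.469%).

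The mitochondrial rRNAs were also compared with the other chimeras, all of which carry a morpholino. Against the mean of the other 10 treatments MT-RNR2 was higher by 0.29 on the log2 scale (SE 0.0519, adjusted p = 0.0222, edgeR), 1 of 2 genes called in that contrast (0.00987% of those tested), and MT-RNR1 by 0.25 (SE 0.0517, adjusted p = 0.0729). The difference from COX1 silencing was 0.05 for MT-RNR2 (SE 0.0679) and from COX3 silencing 0.05 (SE 0.0679), neither past the threshold. Each of those treatments had its own MT-RNR2 change against the shared control, 0.30 for COX1 and 0.30 for COX3, while CYTB silencing had 0.05. A high rRNA share was not particular to COX2 silencing: both rRNAs took 0.514% to 0.619% of the counts in the COX2 libraries, 0.505% to 0.594% in the 4 ATP8 libraries and 0.515% to 0.538% in the 4 ATP6 libraries. The call of MT-RNR2 against the mean of the other 10 treatments was lost without COX2 replicate 2.

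**Figure D2:**
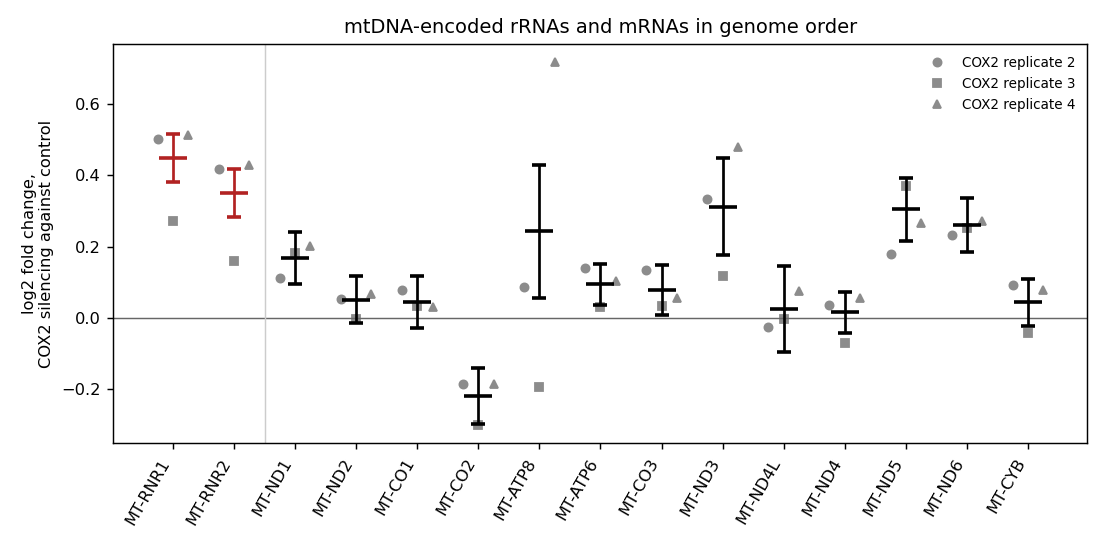
Log2 fold change of COX2 silencing against control for the 2 rRNAs (left of the line) and the 13 mRNAs of mtDNA, in genome order. Horizontal bars are the fitted values with their SE, red where the adjusted p was under 0.05, and grey symbols are the single COX2 libraries relative to the mean control of their batch. The rRNAs lie at 0.45 and 0.35, and MT-CO2 at -0.22 is the only mRNA below 0.

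Against the control, 51 genes rose (0.252% of the genes tested) and 44 fell (0.217%), and 86 of the 95 are protein-coding. The changes were small, with an absolute log2 fold change between 0.20 and 2.54 and a median of 0.31. All 95 lay on one side of the batch control in all 3 COX2 libraries, as did 8392 of the 20272 genes, and the levels of the groups did not overlap for 63 of them, as for 7.69% of all genes. The 95 were called on these same libraries, so both counts only describe them. Against the shared control, all 95 moved in the same direction after COX1, COX3 and CYTB silencing as after COX2 silencing. Of the 95, 4 were also called after COX1, 28 after COX3 and 21 after CYTB silencing. Those comparisons use the same control libraries, so they are not independent. Compared directly, 1 of the 95 differed past the threshold from COX1 silencing and 0 from COX3 silencing. Scaling by counts on nuclear genes, without TMM, turned the split into 35 higher and 82 lower, so that 29.9% rather than 53.7% of the calls were higher; the median log2 fold change over all genes was then -0.03, against 0.00. With the replicate number as a block in place of the batch, 134 genes rose and 86 fell, and these 220 include the 95.

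The number of calls depended on single libraries. Without control replicate 4 the test called 9 genes, without COX2 replicate 3 it called 10 and without COX2 replicate 2 it called 16, while without COX2 replicate 4 it called 333. Leaving out control replicate 3 gave 47 calls. The direction of all 95 genes was the same in each of these 7 fits, but only MT-RNR1, PFKP and ARRDC4 were called in every one, and 14 of the 95 were called in at least 5. HOXB9, WNT5A, TXNIP, RSRP1 and CLK4 were called in 6 of the 7. Within the batches, all 95 genes had the same sign in batch 1 and in batch 2, where the estimates share no library. Over the 10424 genes with a mean of at least 10 CPM, 6876 did so, and the batches' log2 fold changes correlated at 0.405 (Pearson). Over all 20272 genes tested, 12154 did so, and the correlation was only 0.0222. Genes are not independent replicates in either value. The called genes were chosen on both batches together, so their agreement in sign is a description.

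**Figure D3:**
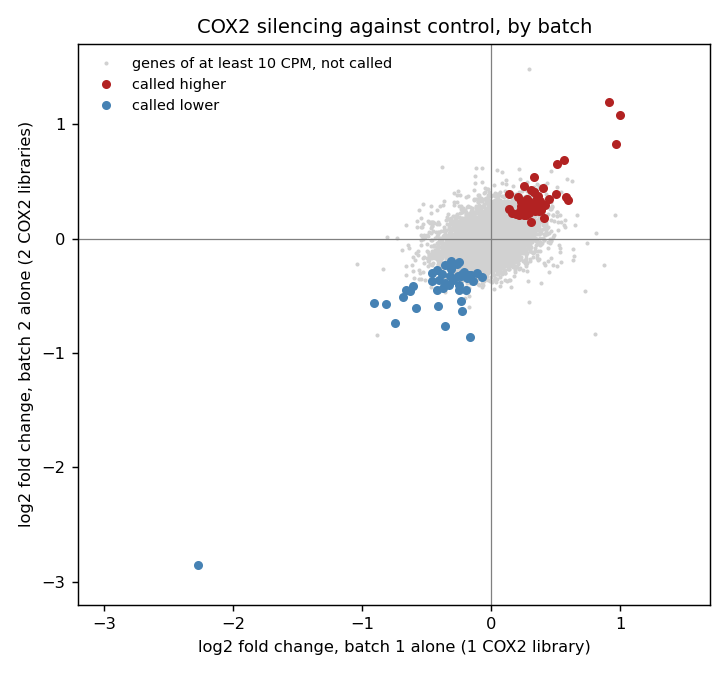
Log2 fold change of COX2 silencing against control in batch 1 alone (1 COX2 library, horizontal) and batch 2 alone (2 COX2 libraries, vertical). Red and blue points are the 51 genes that rose and the 44 that fell in the test over both batches, grey points the other genes with at least 10 CPM. All 95 colored points lie in the quadrants of equal sign, and the lone point at the lower left is LINC00846, a noncoding gene with under 1 CPM in each of the 7 libraries.

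Several transcripts for glycolysis rose. Of 22 genes for glucose uptake, glycolysis and lactate, 5 rose and none fell, where 0.252% of all genes rose. A log2 fold change above 0 was found for 21 of the 22 and for 10319 of all 20272 genes tested. The median was 0.15, against 0.00 over all genes. PFKP, the platelet-type phosphofructokinase of the committed step (chr10:3066333-3137712), was at 378, 384 and 371 CPM after silencing and at 320, 322, 308 and 298 CPM in the control. The groups lay well apart, with a log2 fold change of 0.27 (SE 0.0480, adjusted p = 0.00558, edgeR), 0.24 in batch 1 and 0.31 in batch 2. LDHA, which encodes the lactate dehydrogenase subunit that favors lactate formation (chr11:18394388-18408425), was at 937, 819 and 801 CPM against 760, 766, 714 and 667 CPM (0.25, SE 0.0483, adjusted p = 0.00558). All COX2 libraries exceeded all control libraries here too.

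PFKM, the muscle-type phosphofructokinase, rose from 128 to 133 CPM in the control to 144, 160 and 152 CPM (0.21, SE 0.0454, adjusted p = 0.0199, edgeR). HK1, the hexokinase bound to the mitochondrial surface, was at 252, 252 and 246 CPM against 210 to 229 CPM (0.20, SE 0.0497, adjusted p = 0.0396). ENO1, or enolase, was at 3602, 3125 and 2840 CPM against 3016, 2962, 2692 and 2458 CPM, where the groups overlapped across batches but not within them (0.22, SE 0.0526, adjusted p = 0.0316). Another 8 of the 22 genes, among them HK2 and PGK1, had an unadjusted p under 0.05 and a higher level, as did 7.42% of all genes, but an adjusted p above the threshold. SLC16A1, a lactate and pyruvate transporter, was the 1 member below 0, at -0.03 (SE 0.0465). Leaving out 1 library lowered the number of glycolysis genes called to 1 without COX2 replicate 2 or control replicate 4, to 2 without COX2 replicate 3 or control replicate 3, and to 3 without control replicate 2. None was called in either batch alone. Removal of each library's GC trend left 6 called.

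Both called members of the MondoA and ChREBP list fell, and with the replicate block HK2 was also called, higher (adjusted p = 0.0498, edgeR). These transcription factors sense glucose 6-phosphate, and TXNIP and ARRDC4, alpha-arrestins that restrain glucose uptake, are their best-known targets. TXNIP (chr1:145992435-145996600) was at 25.5, 32.8 and 31.9 CPM after COX2 silencing and at 35.1, 33.1, 46.2 and 41.9 CPM in the control, which puts the silenced libraries at 74.7%, 74.4% and 72.5% of the control of their batch. Its log2 fold change was -0.44 (SE 0.0839, adjusted p = 0.00558, edgeR). ARRDC4 (chr15:97960698-97973838) was at 48.5, 52.6 and 48.7 CPM against 59.2, 62.8, 65.03 and 68.7 CPM (-0.37, SE 0.0688, adjusted p = 0.00558). Neither gene's groups overlapped. ARRDC3, another alpha-arrestin of the list, had a log2 fold change of -0.03 (SE 0.109), and HK2 and PFKFB3 had 0.21 and 0.07, so the median of the 8 members was 0.03. ARRDC4 was called in all 7 fits that left out 1 library and TXNIP in 6.

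TXNIP and ARRDC4 moved together here, so their promoters are shown, 250 bases before to 50 bases after the start of the RefSeq transcript (GRCh38.p14). The carbohydrate response element bound by MondoA consists of paired E-box-like motifs at a fixed spacing, and a CCAAT box often stands beside it. Capitals mark matches on either strand to a paired motif (CACGNG, any 5 bases, CACGNG), to CACGTG, which a CACGNG can contain, and to CCAAT, motifs that were chosen with the promoters in view. TXNIP lies on the - strand at chr1:145996530-145996829 and ARRDC4 on the + strand at chr15:97960453-97960752.
TXNIP: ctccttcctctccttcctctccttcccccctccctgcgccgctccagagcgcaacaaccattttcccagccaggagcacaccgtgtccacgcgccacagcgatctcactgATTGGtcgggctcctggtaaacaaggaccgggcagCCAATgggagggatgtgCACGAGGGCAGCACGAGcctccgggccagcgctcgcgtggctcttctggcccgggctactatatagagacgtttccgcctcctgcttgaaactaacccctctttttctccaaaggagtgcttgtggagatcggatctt
ARRDC4: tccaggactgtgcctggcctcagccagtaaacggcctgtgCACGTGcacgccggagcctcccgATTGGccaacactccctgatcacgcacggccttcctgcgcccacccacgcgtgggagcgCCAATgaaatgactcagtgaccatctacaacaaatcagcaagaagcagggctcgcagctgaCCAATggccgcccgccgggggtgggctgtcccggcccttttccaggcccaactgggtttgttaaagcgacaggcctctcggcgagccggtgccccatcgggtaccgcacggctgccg

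The TXNIP window holds 1 match to the paired motif, which begins 88 bases before the start, and 2 CCAAT boxes. The ARRDC4 window holds a CACGTG, which begins 210 bases before the start, and 3 CCAAT boxes, but no match to the paired motif. Of 35116 promoter windows of the same length, 0.057% hold the paired motif, 7.26% hold CACGTG and 34.6% hold CCAAT. The match in TXNIP was the only one to the paired motif among the 52 windows of genes that fell, and there was none in the 81 windows of genes that rose. These matches are letters in a window and say nothing of which factor was bound.

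Neither gene differed past the threshold between COX2 silencing and COX1 or COX3 silencing. The direct difference from COX1 silencing was 0.34 for TXNIP (SE 0.0858, adjusted p = 0.263, edgeR) and 0.10 for ARRDC4 (SE 0.0694), and the differences from COX3 silencing were -0.01 and -0.08. Against the control that all share, TXNIP had a log2 fold change of -0.78 after COX1, -0.43 after COX3 and -0.73 after CYTB silencing. PFKP differed from COX1 silencing by 0.10 (SE 0.0480) and LDHA by 0.18 (SE 0.0483), also not past the threshold. From COX3 silencing they differed by 0.12 (SE 0.0478) and 0.05 (SE 0.0483), and the glycolysis list by a median of 0.02. Against the shared control, LDHA (0.21), PFKM (0.20) and ENO1 (0.23) were also called after COX3 silencing (adjusted p from 0.0135 to 0.0186, edgeR). PFKP was not (0.15, adjusted p = 0.141).

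RBM3 set COX2 apart from COX1 silencing. This X-linked gene (chrX:48574449-48579066) encodes an RNA-binding protein that is induced by mild cooling. It was at 377, 360 and 319 CPM after COX2 silencing and at 247, 257, 276 and 250 CPM in the control, with no overlap and a log2 fold change of 0.45 (SE 0.0868, adjusted p = 0.00558, edgeR). The direct difference from COX1 silencing was 0.41 (SE 0.0868, adjusted p = 0.0407), and RBM3 was the only nuclear-encoded protein-coding gene among the 8 called in that contrast (0.0395%; 0.0197% higher and 0.0197% lower). It did not pass against COX3 silencing (0.11, adjusted p = 1.00). Against the shared control, the log2 fold change of RBM3 was 0.04 after COX1, 0.34 after COX3 and 0.04 after CYTB silencing. CIRBP, the other cold-inducible member of the list, was at 141, 185 and 183 CPM against 120 to 155 CPM (0.21, SE 0.0655, adjusted p = 0.123).

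The other genes called between COX2 and COX1 silencing were mostly those around the COX1 target. MT-CO1 was higher by 1.38 on the log2 scale in COX2 silencing (SE 0.0730) and MTCO1P12, a nuclear copy of MT-CO1 whose reads the counting may not have separated from it, by 1.24 (SE 0.141). The light-strand tRNA genes MT-TY, MT-TC and MT-TN, which lie just before MT-CO1, were lower by 1.90, 1.23 and 0.81. AP000692.2, an antisense transcript on chromosome 21, was higher by 1.30 (SE 0.245, adjusted p = 0.00736, edgeR). It was also the other gene called against the mean of the other 10 treatments (0.90, SE 0.174, adjusted p = 0.0429), at 3.63, 3.37 and 2.29 CPM in the COX2 libraries and 2.22, 2.03, 1.24 and 1.56 CPM in the control. Its level is low, and against the control its adjusted p of 0.0501 stayed above the threshold (edgeR; log2 fold change 0.94, SE 0.238), while with the replicate block it was 0.0239. Between COX2 and COX3 silencing 2 genes were called (0.00987%), MT-CO3 (0.57, SE 0.0693) and MT-ATP6 (0.42, SE 0.0586), the COX3 target and the gene next to it.

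ETV4 and GPR3 were the called members of the list of ERK feedback and immediate early genes. ETV4, an ETS transcription factor induced through ERK (chr17:43527844-43579620), was at 22.5, 25.7 and 11.97 CPM after COX2 silencing and at 10.0, 13.002, 12.2 and 9.14 CPM in the control (0.91, SE 0.191, adjusted p = 0.0143, edgeR). Replicates 2 and 3 lay far above the control, whereas replicate 4 lay within the control range. GPR3, a receptor that raises cyclic AMP, was at 3.72, 3.10 and 2.34 CPM against 1.24 to 2.16 CPM (1.00, SE 0.235, adjusted p = 0.0316). Of the 26 genes of the list these were the 2 that rose and none fell, where 0.252% of all genes rose, and EGR3 lay in the other direction at -0.80 (SE 0.234, adjusted p = 0.0909). EPHA2, a receptor tyrosine kinase, was at 47.3, 47.4 and 35.0 CPM against 30.9 to 35.1 CPM (0.39, SE 0.0823, adjusted p = 0.0143), with replicate 4 again the lowest of the silenced libraries. EPHA4, another receptor of that family, fell, at 29.3, 31.6 and 37.7 CPM against 37.6 to 42.0 CPM (-0.31, SE 0.0734, adjusted p = 0.0316). These were the calls among 22 Eph receptors and ephrins, a list drawn up with the values known, whose median was 0.06. TNC, an extracellular matrix glycoprotein, was at 108, 132 and 94.0 CPM against 74.0 to 94.3 CPM (0.40, SE 0.0998, adjusted p = 0.0421; with the GC trend removed 0.37, adjusted p = 0.0545). It was the 1 of 34 extracellular matrix and adhesion genes that rose, and FLRT2 was the 1 that fell (0.252% of all genes rose and 0.217% fell).

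Further single genes rose. HMOX1, heme oxygenase 1, was at 130, 119 and 75.0 CPM against 77.7, 98.4, 64.7 and 55.6 CPM in the control (0.66, SE 0.153, adjusted p = 0.0316, edgeR). It was the 1 called of 20 NRF2 targets and antioxidant enzymes, where 0.252% of all genes rose. GSS, glutathione synthetase, was at 62.0, 63.4 and 62.3 CPM against 48.3 to 53.2 CPM, without overlap (0.28, SE 0.0567, adjusted p = 0.00999). OGDHL, a relative of the 2-oxoglutarate dehydrogenase of the citric acid cycle, was at 10.5, 11.9 and 12.7 CPM against 6.87 to 8.61 CPM (0.59, SE 0.117, adjusted p = 0.00970). None of the 26 genes for the citric acid cycle and pyruvate entry was called, but PDP1 and IDH3B were with the replicate block (adjusted p = 0.0152 and 0.0164, edgeR). CD63, a tetraspanin of late endosomes and exosomes, was at 259, 226 and 227 CPM against 166 to 214 CPM (0.36, SE 0.0686, adjusted p = 0.00558). It was the 1 called of 24 endosome, lysosome and autophagy genes, where 0.252% of all genes rose. Against the shared control, CD63 was also higher by 0.37 after COX1, 0.33 after COX3 and 0.33 after CYTB silencing. FUCA2, a secreted fucosidase, and SLC44A2, a choline transporter, rose by 0.29 (SE 0.0610) and 0.28 (SE 0.0587), the latter with COX2 replicate 2 inside the control range.

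Of 68 ribosome biogenesis genes 3 rose, where 0.252% of all genes rose, namely FBL (fibrillarin, the methyltransferase of box C/D snoRNPs), NHP2 (a protein of box H/ACA snoRNPs) and RRP1. FBL was at 836, 750 and 777 CPM against 612 to 714 CPM (0.27, SE 0.0627, adjusted p = 0.0316, edgeR), NHP2 at 121, 102 and 106 CPM against 81.2 to 92.9 CPM (0.32, SE 0.0705, adjusted p = 0.0199) and RRP1 at 157, 167 and 146 CPM against 120 to 137 CPM (0.29, SE 0.0634, adjusted p = 0.0226). None of the 3 groups of values overlapped, but all 3 calls were lost without COX2 replicate 2, control replicate 3 or control replicate 4. In all, 26 members had an unadjusted p under 0.05 and a higher level, against 7.42% of all genes, none a lower one, and the median was 0.08. With the replicate block 6 members were called, the same number as for glycolysis. RUVBL2, a AAA+ ATPase that assists snoRNP assembly, was at 231, 227 and 212 CPM against 176 to 193 CPM (0.26, SE 0.0537, adjusted p = 0.0111). Of 31 proteasome genes only PSMB7, a catalytic subunit of the core particle, rose, from 146 to 184 CPM in the control to 237, 183 and 173 CPM (0.29, SE 0.0601, adjusted p = 0.0143), and the median was 0.14. Of the 31, 28 lay above 0, as did 10319 of all 20272 genes tested, and 20 had an unadjusted p under 0.05 and a higher level. PSMD1 was also called with the replicate block (adjusted p = 0.0259, edgeR).

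**Figure D4:**
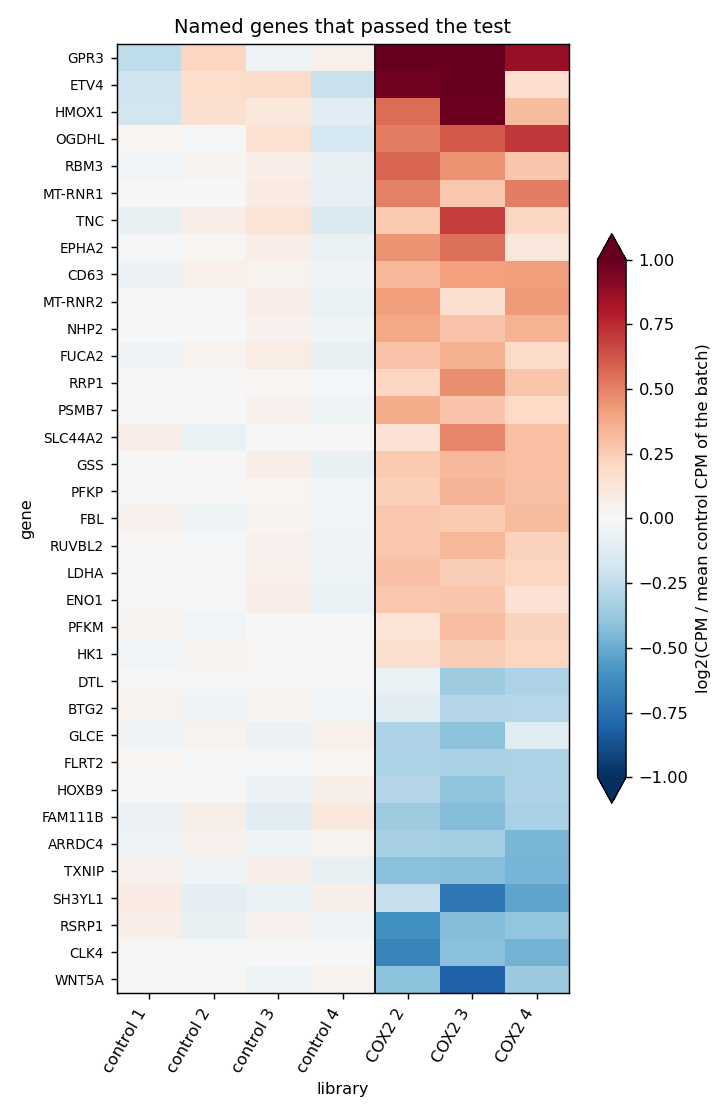
Level of the named genes that passed the test in each control and COX2 library, as the log2 ratio of the CPM to the mean control CPM of the same batch (color scale, saturated beyond 1 in either direction). Genes are ordered by their fitted log2 fold change, from GPR3 at 1.00 to WNT5A at -0.52, and the line separates control from COX2 libraries. ETV4, HMOX1 and EPHA2 are weaker in COX2 replicate 4 than in replicates 2 and 3.

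Among the genes that fell, developmental regulators of the HOXB cluster stood together. HOXB9, a homeobox transcription factor (chr17:48621159-48626356), was at 64.2, 59.7 and 63.8 CPM after COX2 silencing and at 79.2, 78.5, 75.8 and 82.0 CPM in the control, without overlap (-0.33, SE 0.0614, adjusted p = 0.00558, edgeR). HOXB5 (-0.55, SE 0.134, adjusted p = 0.0352) and HOXB3 (-0.27, SE 0.0650, adjusted p = 0.0414) also fell, as did the antisense transcript HOXB-AS3 (-0.58, SE 0.124, adjusted p = 0.0155), which overlaps HOXB3 and HOXB5 and could share reads with them. The cluster was chosen for description after these values were seen: all 9 HOXB genes tested lay below 0, with a median of -0.27, 3 of them called, whereas the 29 HOXA, HOXC and HOXD genes had a median of -0.14 and no call, except HOXA13 with the replicate block (adjusted p = 0.0400, edgeR). Among all genes tested, 0.217% were called lower. Without COX2 replicate 3 none of the 9 HOXB genes was called. Without COX2 replicate 2, control replicate 1 or control replicate 4 only 1 was, and without control replicate 2 or 3 there were 2. Against the shared control, HOXB9 was also called lower after COX3 (-0.25, adjusted p = 0.0268, edgeR) and CYTB silencing (-0.23, adjusted p = 0.0377). It was not called after COX1 silencing (-0.11, adjusted p = 0.686). The median direct difference of the 9 HOXB genes was -0.03 from COX3 and -0.13 from COX1 silencing.

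WNT5A, a ligand of noncanonical Wnt signaling (chr3:55465715-55490539), was at 22.9, 21.4 and 28.9 CPM against 30.2, 30.6, 36.4 and 38.4 CPM, again without overlap (-0.52, SE 0.0982, adjusted p = 0.00558, edgeR). CLK4, a kinase of splicing factors, was at 17.4, 18.7 and 18.0 CPM against 27.8, 27.2, 25.0 and 25.0 CPM (-0.51, SE 0.0979, adjusted p = 0.00558). RSRP1, an arginine and serine rich protein, was at 39.1, 34.6 and 35.8 CPM against 62.3, 56.5, 48.0 and 45.4 CPM (-0.45, SE 0.0856, adjusted p = 0.00558). CLK1 fell too (-0.38, SE 0.0899, adjusted p = 0.0316; with the GC trend removed -0.29, adjusted p = 0.0560). These 3 were the calls among 21 CDC-like kinases and SR proteins (0.217% of all genes fell), a list drawn up after the values were seen. Its median was -0.07.

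FAM111B, a serine protease linked to DNA replication, was at 65.02, 53.4 and 57.6 CPM against 66.7 to 86.5 CPM (-0.36, SE 0.0666, adjusted p = 0.00558, edgeR). DTL, the substrate receptor of a ubiquitin ligase active in S phase, fell by 0.22 on the log2 scale (SE 0.0477, adjusted p = 0.0196), although COX2 replicate 2 at 118 CPM lay within the control range of 114 to 125 CPM. None of the 26 cell cycle genes was called, and their median was -0.01, but PCNA was called lower with the replicate block (adjusted p = 0.0288, edgeR). FLRT2, an adhesion and axon guidance protein, was at 34.2, 32.6 and 32.8 CPM against 40.2 to 43.1 CPM (-0.31, SE 0.0637, adjusted p = 0.0108), and with the GC trend removed the value was -0.24 with an adjusted p of 0.0894. GLCE, an epimerase of heparan sulfate synthesis, and SH3YL1 fell by 0.28 (SE 0.0606) and 0.44 (SE 0.0987).

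BTG2, an antiproliferative target of p53, was at 71.2, 65.01 and 65.2 CPM against 75.1 to 81.2 CPM (-0.22, SE 0.0498, adjusted p = 0.0253, edgeR). It was the 1 called of 23 p53 targets, where 0.217% of all genes fell. Of the 23, 19 had a log2 fold change below 0 and 8 an unadjusted p under 0.05 in that direction, against 6.16% of all genes. The median was -0.09. CDKN1A, the textbook target of p53, was at -0.04 (SE 0.0681). No cholesterol biosynthesis gene was called: 20 of 25 were below 0 and 11 had an unadjusted p under 0.05 in that direction, against 6.16% of all genes, with a median of -0.14. MSMO1, a sterol demethylase, came closest at 52.9, 40.8 and 54.8 CPM against 59.9 to 63.7 CPM (-0.35, SE 0.0959, adjusted p = 0.0708), and it passed with the replicate block (adjusted p = 0.0283, edgeR). The median of this list shrank to -0.06 without control replicate 1.

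**Figure D5:**
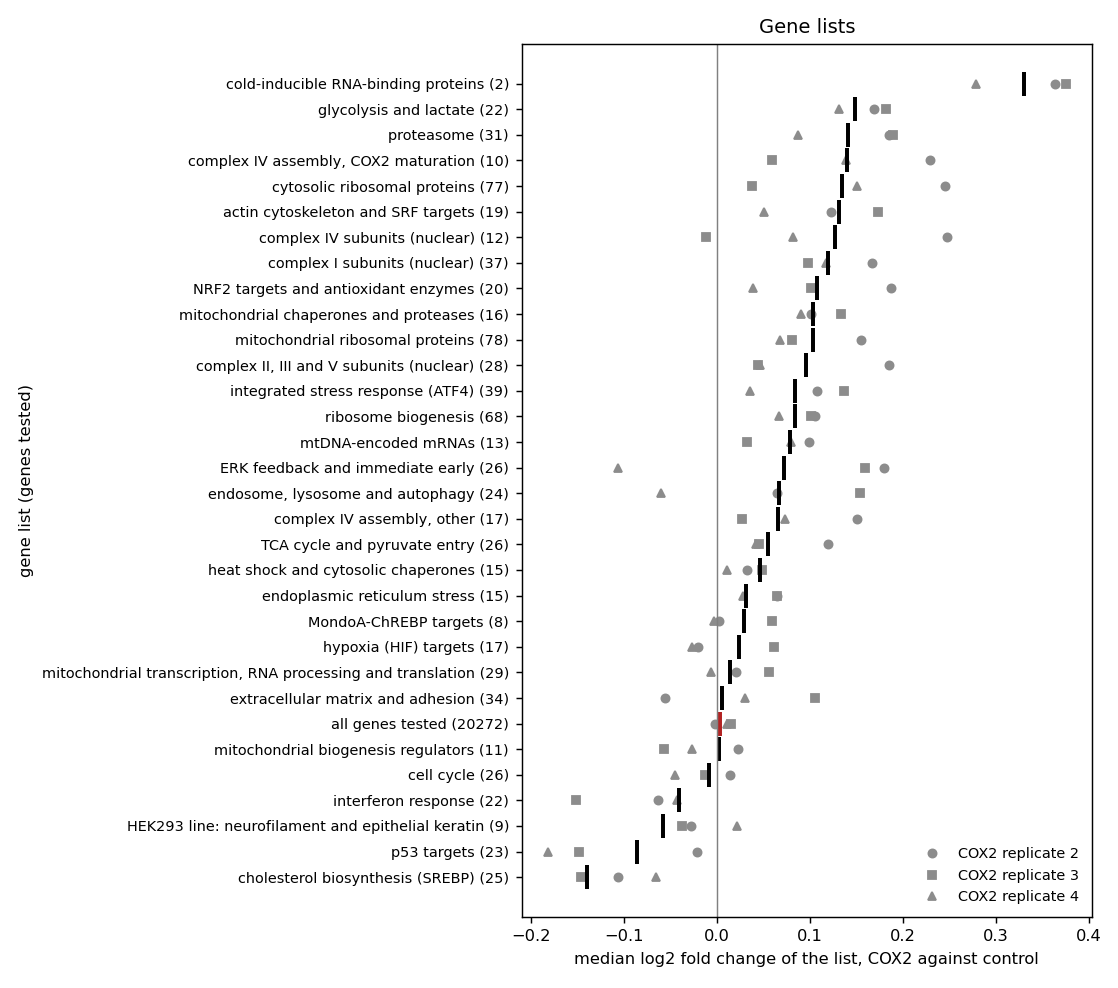
Median log2 fold change of COX2 silencing against control over the genes of each list (black bars; red bar, all 20272 genes tested), with the median in each COX2 library relative to the control of its batch (grey symbols). Glycolysis lies at 0.15 with all 3 libraries on the same side, and cholesterol biosynthesis at -0.14, while the nuclear complex IV subunits spread from -0.01 in replicate 3 to 0.25 in replicate 2.

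No mRNA of a complex IV subunit passed the threshold. All 12 nuclear-encoded subunits had a log2 fold change above 0, with a median of 0.13, and COX4I1, which joins COX1 early in assembly, had the smallest p at 296, 239 and 241 CPM against 202 to 257 CPM (0.16, SE 0.0592, adjusted p = 0.186, edgeR). The median of the 12 was 0.25 in COX2 replicate 2, -0.01 in replicate 3 and 0.08 in replicate 4, so it rested mostly on 1 library. Of 10 genes for COX2 maturation, none was called. COX20, which holds newly made COX2, was at 0.31 (SE 0.161), TMEM177, its partner, at 0.16 (SE 0.0737), COA6 and COX19 of the copper pathway at 0.15 (SE 0.0747) and 0.15 (SE 0.0861), and SCO1, the copper metallochaperone of COX2, at 0.04 (SE 0.0531). The 17 other assembly factors and the 37 nuclear complex I subunits gave no call either, with medians of 0.07 and 0.12. Likewise, complexes II, III and V (28 genes) had a median of 0.10 and no call, and here too the median was highest in replicate 2 (0.18, against 0.04 and 0.05).

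Further mitochondrial and stress programs were examined in the same way. TIMM10, a small chaperone of the intermembrane space, rose by 0.44 (SE 0.0995, adjusted p = 0.0275, edgeR) and PMPCA, a subunit of the protease that removes presequences, by 0.23 (SE 0.0543, adjusted p = 0.0340). They were the calls among 26 protein import genes (0.252% of all genes rose), a list drawn up with the values known, with a median of 0.11. The 39 genes of the integrated stress response (ATF4) had no call and a median of 0.08, with TRIB3 at 0.29 (SE 0.0737, adjusted p = 0.0563) and STC2 at 0.24 (SE 0.0636, adjusted p = 0.0590) closest to the threshold. Of the 39, 12 had an unadjusted p under 0.05 and a higher level, against 7.42% of all genes. With the replicate block, TRIB3, STC2, SHMT2, SLC7A5 and WARS were called higher (adjusted p from 0.0239 to 0.0410, edgeR). There was no call in edgeR either among 17 HIF targets (median 0.02), 15 genes of endoplasmic reticulum stress (0.03), 15 cytosolic chaperones (0.05), 16 mitochondrial chaperones and proteases (0.10), 29 genes of mitochondrial transcription, RNA processing and translation (0.01), 11 regulators of mitochondrial biogenesis (0.00), 19 actin and SRF genes (0.13) or 22 interferon response genes (-0.04). In these lists the replicate block called FLNA (adjusted p = 0.0154), TRAP1 (0.0451) and SDF2L1 (0.0451), all higher. An unadjusted p under 0.05 and a higher level were found for 8 of the 19 actin and SRF genes, against 7.42% of all genes. The 77 cytosolic and 78 mitochondrial ribosomal protein genes had medians of 0.13 and 0.10, again with no call. Of the 77, 76 lay above 0, as did 10319 of all 20272 genes tested. An unadjusted p under 0.05 and a higher level were found for 30 of the 77 and 22 of the 78, against 7.42% of all genes. The median of the 77 was 0.25, 0.04 and 0.15 in replicates 2, 3 and 4.

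The 2 groups of called genes differed in base composition. The median GC content was 54.0% for the genes that rose and 42.1% for those that fell, against 48.6% for all genes tested, and the median gene length was 3670 and 5780 bases against 3979. The mean GC content of the counts was 48.71% ± 0.190 in the COX2 libraries and 48.44% ± 0.136 in the control (SD, n = 3 and n = 4; exact permutation p = 0.114). After removal of each library's GC trend, 126 genes were called, 72 higher and 54 lower, which include 75 of the 95. The part of base composition in the other calls was not tested.

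Stretches of the target site were sought in the annotated transcripts of all genes. Of 20263 tested genes with a transcript sequence, 205 hold a run of at least 11 bases of the target site, among them MT-CO2 itself with all 23. None of these was called, where 0.469% of all genes were. At that share few calls are to be looked for among 205 genes, so their absence says little. A run of at least 10 bases occurs in 1148 genes, 5.67% of those with a sequence, and 11 of them were called, 2 of which fell. These 11 were 11.7% of the called genes with a sequence, a larger share than the 5.67%. Whether the runs played a part was not tested. The median log2 fold change was 0.01 for the 205 genes and 0.00 for the 1148.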

How the data were processed

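The authors sequenced poly(A)-enriched RNA of HEK293T cells and deposited raw read counts for 58735 genes in 46 libraries, without normalization. Neither the read aligner nor the counter nor its strand setting is given in the sources used here, so antisense and overlapping genes may share reads. The paper describes paired-end reads and the sample records single-end reads. GRCh38.p12, R 4.3.0, DESeq2 1.40.2 and limma 3.56.2 are named in the submitters' processing notes. One further column, also deposited by the authors, gives each gene's length in bases. Every column of counts matched a sample.

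The analysis used R 4.3.3 and edgeR 4.0.16. A quasi-likelihood model with condition and batch was fitted to all 46 libraries after TMM scaling, for the 20272 genes that filterByExpr retained at a minimum count of 10. Adjustment followed Benjamini and Hochberg across those genes, and an adjusted p under 0.05 was called. All CPM and log2 values derive from the counts the authors deposited. A prior count of 2 was used for log2 CPM, as in the list medians of single libraries, and not for the fitted log2 fold changes. The SE is the size of the log2 fold change over the square root of F. Replicates were not copies of each other (chi-square per degree of freedom 3.31 to 20.3), and the paper calls them biological replicates. Over 10424 genes, COX2 and control libraries of equal replicate number shared deviations from the group means. Correlations were 0.766, 0.512 and 0.557 for replicates 2, 3 and 4. The batch was not removed, and replicate 2 was the only batch 1 library on either side, so 0.766 includes the batch difference. Within batch 2, unequal numbers correlated at 0.319 (COX2 replicate 4, control replicate 3) and 0.245 (COX2 replicate 3, control replicate 4). The replicate number was used as a block in an alternative. The model was tested on simulated data with a batch shift but without deviations shared by replicate number. At a simulated log2 change of 0.3, 48% of 50 genes were called, and 60%, 90% and 98% at 0.5, 1 and 2. There were 5 false calls among 20072 unchanged genes.

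The naming rule covered the 13 mRNAs of mtDNA, every called member of a list, the 12 higher and 12 lower called protein-coding genes of smallest p with at least 1 CPM and all COX2 libraries on the same side, genes called in all 7 fits that omit 1 library, genes called against the mean of the other 10 treatments, up to 6 genes in each direct contrast, and up to 4 leading members per list. HOXB5, HOXB3, HOXB-AS3, CLK1, TIMM10, PMPCA, LINC00846, CDKN1A, SCO1, SLC16A1, ARRDC3, MT-TN, EPHA4, WARS and HOXA13 lie outside it and were picked after their values were seen. Members, lists and tests were chosen with earlier results of these data known. Alternatives were a model with no batch, the replicate block, DESeq2 1.42.0 with the batch or on counts corrected in limma 3.58.1, RLE factors, library sizes over nuclear genes, removal of trends on gene length, other filters, the 7 libraries alone, either batch alone, an absolute log2 fold change of at least 0.5, and omission of libraries. Removal of GC trends, robust dispersions and the omission of replicate 4 from both groups were added after seeing the data. Promoters are from RefSeq (GRCh38.p14), transcripts from GENCODE (GRCh38).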

Additional observations from a re-analysis of the deposited data

Results flagged for a closer look

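COX2 silencing differed from another treatment by a direct test (edgeR, adjusted over all genes tested) in 12 results. Against COX1 silencing, the log2 difference was 1.38 for MT-CO1, 1.24 for MTCO1P12, -1.90 for MT-TY, -1.23 for MT-TC, -0.81 for MT-TN, -0.51 for MT-CO2, 1.30 for AP000692.2 and 0.41 for RBM3. Against COX3 silencing it was 0.57 for MT-CO3 and 0.42 for MT-ATP6. Against the mean of the other 10 treatments it was 0.29 for MT-RNR2 and 0.90 for AP000692.2, and neither value compares COX2 with any 1 of those treatments. In a search for single libraries that stood far from the rest of their group, none of 56 sets of 4 control libraries held one, where chance gives about 5% of sets.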

How the results depend on the processing

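The number of genes called between COX2 silencing and the control, 95, moved most. It was 2 without the batch term, 220 with the replicate block, 309 with DESeq2 and the batch, 353 with DESeq2 on corrected counts, 321 without a filter, 146 with the stricter filter, 341 with only the 7 libraries, 16 at an absolute log2 fold change of at least 0.5, 3 in batch 1 alone, 1 in batch 2 alone and 27 without replicate 4 of both groups, an alternative chosen after seeing the data. Without 1 library it ranged from 9 to 333. The 8 genes called against COX1 silencing became 4 without the batch term, 13 with the replicate block and 29 without a filter, with 5 as the lowest count without 1 library. The 2 against COX3 silencing became 0 without the batch term in edgeR (394 at an unadjusted p under 0.05) and 17 without a filter. The 2 against the mean of the other 10 treatments became 0 without the batch term in edgeR (765 at an unadjusted p under 0.05), 11 with the replicate block, 1 with nuclear library sizes, 52 without a filter and 0 to 5 without 1 library, with 0 without COX2 replicate 2 (1186 at an unadjusted p under 0.05) and 5 without COX2 replicate 4.

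MT-CO2 kept its direction throughout and passed the threshold of edgeR without a filter (-0.22, adjusted p = 2.7e-05) and with only the 7 libraries (-0.22, adjusted p = 0.0144). In neither setting was it the only mtDNA-encoded mRNA to pass. Without a filter 8 of the 52 named genes gained a call, and with only the 7 libraries 6 did. Estimates near 0 changed sign. With the gene length trend removed, MT-CYB was at -0.000871, MT-CO1 at -0.00265 and MT-ND4 at -0.0320, and with nuclear library sizes MT-ND4 was at -0.0168 and MT-ND4L at -0.00719. MT-ND4 was at -0.0149 in batch 2 alone, and MT-ND4L at -0.0272 in batch 1 alone and -0.0196 without replicate 4 of both groups. Without 1 library, MT-ATP8 ranged from -0.0501 to 0.432, MT-ND4 from -0.0170 to 0.0530 and MT-ND4L from -0.0288 to 0.0633. Over 52 named genes and 23 alternatives, 902 of 1196 values kept direction and side of the threshold, 258 lost the call, 23 gained one and 13 changed sign. The causes were not tested. With 3 libraries against 4, and 1 COX2 library in batch 1, the exact test of a single value cannot reach 0.05.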
